A study of Mus musculus with 11 samples.

Results

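The genes described here are the protein-coding neighbours of Pkn2 on mouse chromosome 3. They were chosen by position and by a minimum of counts, and some genes were left out by name. The choice was made with earlier results of these data known. A gene was taken where its annotated start in GENCODE M21 (genome build GRCm38) lay within 10 Mb of Pkn2, between 132790902 and 152882004, and where at least 10 reads were counted in at least 5 of the 11 tumours. The interval holds 103 protein-coding genes. Of these, 8 were left out by name (Pkn2, Gbp2, Gbp2b, Gbp3, Gbp5, Gbp7, Ccn1 and Eif4e) and 19 had too few counts, which left 76 of the 54232 gene identifiers in the count table. The 76 genes lie 36 at lower and 40 at higher coordinates than Pkn2. A count of 10 was reached in all 11 tumours by 65 of them, and 8 reached it in at least 5 KO tumours but not in all 5 WT tumours.

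RNA was sequenced from 11 orthotopic pancreatic tumours, 6 grown in PKN2 KO hosts (KO, replicates A to F) and 5 in PKN2 WT hosts (WT, replicates A to E). All hosts were C57BL/6 mice with 1 copy of a tamoxifen-inducible Cre (Rosa26-CreERT2, expressed in all tissues). Per the study, the sequenced tumours came from females, and the hosts were adult littermates of matched age that all received tamoxifen. KO hosts carried Pkn2 fl/fl and WT hosts Pkn2 +/+. Each pancreas received 1000 TB32048 cells, a mouse pancreatic carcinoma line with intact PKN2, so that every tumour mixed carcinoma cells of one line, with their own chromosome 3, and cells of the host. The labels do not say which animals were littermates, and the p-values measure the spread between these tumours.

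A floxed allele is made in embryonic stem cells and then moved into a breeding strain by repeated crossing. Genes that lie near the targeted gene tend to be inherited together with it, because recombination between close positions is rare, so that mice with and without a targeted allele can also differ at its neighbours. Such genes can be examined in an expression table by their position alone. The floxed Pkn2 allele was made in C57BL/6N embryonic stem cells and, per the study's methods, was crossed to C57BL/6J for many generations before the Cre was introduced. No genotype of the neighbouring region was used here.

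Pkn2 itself (ENSMUSG00000004591, chromosome 3, 142790902 to 142882004, minus strand) encodes a serine/threonine kinase. In WT tumours A to E it stood at 69.2, 62.9, 84.4, 138 and 129 CPM (counts per library size, with sizes scaled by the TMM method). KO tumours ranged from 80.1 to 108 CPM with a median of 98.2, within the WT range. KO over WT gave a log2 fold change of -0.00 ± 0.21 (SE; edgeR quasi-likelihood test, adjusted p = 0.996), and -0.46 without WT tumours A, B and C. Exon-level counts, which would show the deleted part of the gene, were not used here, and the carcinoma cells keep the gene, so that this value does not check the labels.

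Total counts ranged from 16294128 in WT B to 31121422 in WT E, and 3 counts corresponded to 0.0887 to 0.250 CPM. Libraries WT A, B and C stood apart. Expression relative to the mean of all tumours was correlated with exonic gene length at a rho of -0.50, -0.45 and -0.17 in these 3 libraries and at 0.10 to 0.37 in the other 8, and ribosomal RNA took 1.31%, 6.39% and 1.40% of their counts against 0.241% to 0.765% elsewhere. Values without them are given beside some of the genes below. The genes named by rule whose sign turned without them are listed in the last section. The tumours also differed in marker genes of other cells. Of 4 B cell markers, all 4 had an unadjusted p under 0.05 and were higher in KO, with a summed level of 28.1 to 84.8 CPM in KO and 5.26 to 23.3 CPM in WT tumours. Of 5 carcinoma epithelial markers 3 were lower (summed level 2443 to 4867 CPM in KO, 3061 to 7917 CPM in WT), 2 of 4 macrophage, 2 of 4 neutrophil and 2 of 4 adipocyte markers were higher, 1 of 2 tested acinar markers was lower, and no endothelial, fibroblast or interferon-stimulated marker had an unadjusted p under 0.05. No marker passed the adjusted threshold in edgeR, whereas DESeq2 called all 4 B cell markers and 1 macrophage, 1 neutrophil and 1 adipocyte marker higher and 1 acinar marker lower. None of the listed markers was at 0 in every tumour, and their part in the results below was not tested. In bulk tissue, fewer cells of a type and less RNA per cell cannot be told apart.

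Sequences are shown for 2 sets of neighbours, those of adjacent paralogues with high fold changes and those of divergent pairs that share a start region. The first set is the stretch before the RefSeq start of 3 chloride channel accessory genes that lie side by side, Clca3a1, Clca3a2 and Clca3b. Capitals mark runs of 20 or more bases that Clca3a2 and Clca3b share. The stretches are from RefSeq on build GRCm38.p6, minus strand, 5′ to 3′, and for Clca3b only the bases before the start in both RefSeq and GENCODE are printed.
Clca3a1 (chr3:144760978-144761077): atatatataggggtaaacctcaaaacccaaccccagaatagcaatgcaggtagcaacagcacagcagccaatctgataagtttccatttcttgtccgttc
Clca3a2 (chr3:144819495-144819594): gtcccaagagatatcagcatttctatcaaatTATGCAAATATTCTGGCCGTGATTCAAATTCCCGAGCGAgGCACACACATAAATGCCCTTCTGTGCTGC
Clca3b (chr3:144849358-144849402): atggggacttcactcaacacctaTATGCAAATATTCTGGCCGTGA
Over the 100 bases before the RefSeq starts, Clca3a2 and Clca3b share a run of 39 bases, and 68 of the 100 bases lie in shared runs. Clca3a1 shares no run over 7 bases with Clca3a2 and none over 6 bases with Clca3b. The 39-base run occurs in the promoter windows of these 2 genes and of no other gene of the RefSeq table used here. This is a description of letters, and nothing about binding was measured.

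The second set is the DNA between the starts of head-to-head pairs, in which a minus-strand and a plus-strand gene point away from each other. Stretches are printed on the plus strand of GRCm38.p6 from RefSeq promoter windows, limited to bases outside both annotations' transcripts. Capitals mark a GC box (GGGCGG on either strand) or a CCAAT box (CCAAT on either strand).
Hs2st1 and Selenof (chr3:144570217-144570303): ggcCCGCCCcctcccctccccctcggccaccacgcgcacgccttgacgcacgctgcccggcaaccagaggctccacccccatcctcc
Spata1 and Gng5 (chr3:146499754-146499806): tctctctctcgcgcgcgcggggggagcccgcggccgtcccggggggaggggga
Dnajb4 and Fubp1 (chr3:152210303-152210421): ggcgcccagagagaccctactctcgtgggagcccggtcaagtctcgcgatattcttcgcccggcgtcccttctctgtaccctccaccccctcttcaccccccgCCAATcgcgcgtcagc
The first stretch holds 1 GC box in 87 bases, the second neither motif in 53 bases, and the third 1 CCAAT box in 119 bases. For comparison, a GC box occurred in 23.2% of 32544 RefSeq promoter windows of 87 bases and a CCAAT box in 21.1% of windows of 119 bases. The 3 stretches are rich in G and C, at 77.0%, 83.0% and 66.4%.

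The first question was whether the neighbours of Pkn2 differed between KO and WT tumours more often than other genes. Of the 76 genes, 74 passed the expression filter of the fit (Clca4a and Lpar3 did not). None of the 74 passed an adjusted p of 0.05 in edgeR, where 3 of all 16536 genes tested passed (0.0181%). At an unadjusted p under 0.05, 7 neighbours were higher in KO (9.46%, against 8.57% of all genes tested) and 8 were lower (10.8%, against 15.5%). Both shares of this fit are near the background, and so were those of the 628 other tested protein-coding genes of chromosome 3, with 7.80% higher and 12.1% lower. All genes tested include genes that are not protein-coding. Over the tested protein-coding genes, 9.02% were higher and 14.1% lower. In a fit with an offset for gene length, 15 of the 74 were lower, a larger share than the 13.9% of all genes. DESeq2, used as an alternative, called 5 neighbours higher (Clca3a2, Clca3b, Tspan5, Bank1 and St6galnac5, where 3.42% of all genes were called higher) and 2 lower (Adh7 and Bdh2, where 6.03% were called lower). The 8 genes that reached a count of 10 in at least 5 KO but not in all WT tumours (Clca1, Clca3a2, Clca3b, St6galnac5, Bmpr1b, Adh1, Adh7 and 1110002E22Rik) supply 3 of these 5 higher and 1 of these 2 lower calls, and 3 of the 7 higher and 2 of the 8 lower genes at an unadjusted p under 0.05. Clca3b was the sole neighbour whose lowest KO value exceeded its highest WT value, a pattern found in 1.59% of all genes, and none had the opposite pattern, found in 2.01%.

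The size of the differences was also like that of other genes. The median log2 fold change of KO over WT was 0.02 over the neighbours and -0.03 over all genes tested, and the median of its absolute value was 0.30 and 0.34. Over all protein-coding genes tested these medians were 0.01 and 0.32. Neighbours above Pkn2 had a median log2 fold change of 0.10 and those below of -0.11. Log2 fold changes of single neighbours ranged from -2.25 (Adh7) to 2.22 (Clca3a2).

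**Figure D1:**
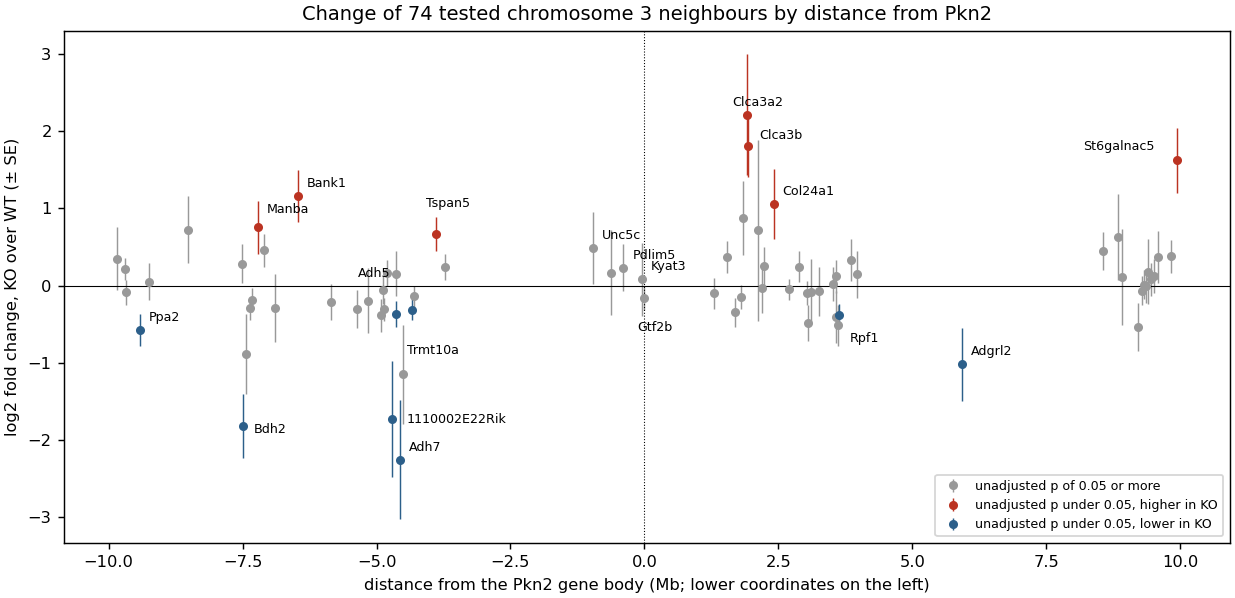
Log2 fold change (KO over WT, bars ± SE) of the 74 tested neighbours against distance from the Pkn2 gene body in Mb, with lower coordinates to the left. The 15 genes with an unadjusted p under 0.05 in edgeR are coloured, 7 higher and 8 lower in KO, and the nearest of them is Clca3a2 at 1.91 Mb.

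The genes were then grouped by their distance from the Pkn2 gene body. Over all tumours, the 5 neighbours within 1 Mb included no gene with an unadjusted p under 0.05, in either direction. This count leaves out the 5 Gbp genes of the same interval, of which 3 had an unadjusted p under 0.05 and were higher in KO. Of the 11 tested genes at 1 to 2.5 Mb, 3 were higher and none lower (Clca3a2, Clca3b and Col24a1). Of the 26 at 2.5 to 5 Mb, 1 was higher and 5 were lower, and of the 32 beyond 5 Mb 3 were higher and 3 lower. The absolute log2 fold change followed the distance with a Spearman rho of 0.02 over the 74 genes, which share the same 11 libraries. The background shares of 8.57% and 15.5% stand beside all of these counts, and the groups hold few genes.

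**Figure D2:**
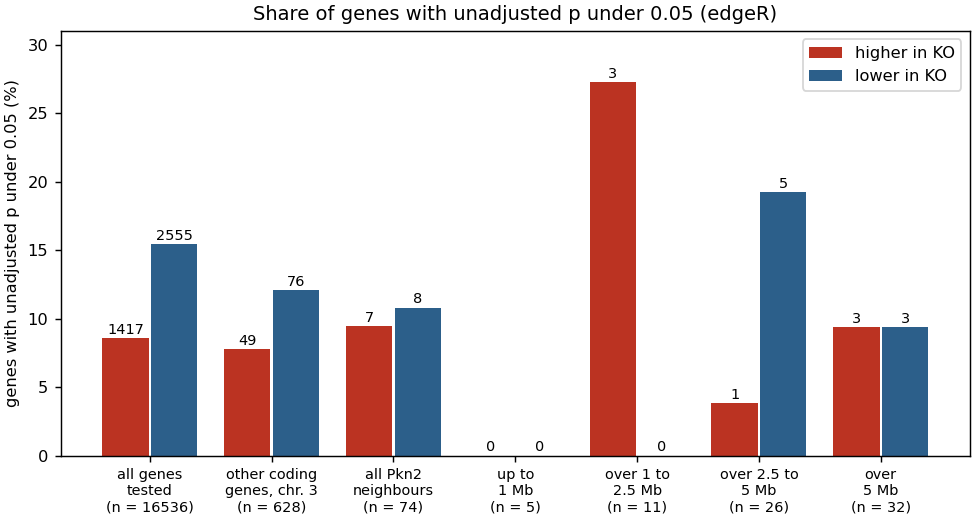
Share of tested genes (%) with an unadjusted p under 0.05 in edgeR, higher (red) and lower (blue) in KO, for all genes, other protein-coding genes of chromosome 3, all neighbours and 4 distance groups, with the number of genes above each bar. The group within 1 Mb, from which 5 Gbp genes are left out by name, has 0 in both directions, while the group at 1 to 2.5 Mb has 3 of 11 genes higher and 0 lower.

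Gtf2b, which encodes the general transcription factor TFIIB, lies closest, 7.30 kb from Pkn2 (142765045 to 142783606, plus strand). WT tumours A to E held 66.4, 75.6, 51.7, 64.9 and 51.9 CPM, and KO tumours ranged from 43.8 to 60.9 CPM with a median of 56.0. The groups overlapped, and the lowest value of all was that of KO A. KO tumours differed by a log2 value of -0.17 ± 0.15 (SE; 95% interval -0.45 to 0.12; edgeR adjusted p = 0.499).

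Kyat3, 44.0 kb away, encodes a kynurenine aminotransferase of tryptophan metabolism. It stood at 4.21, 6.76, 2.90, 11.8 and 7.89 CPM in WT tumours A to E and ranged from 2.84 to 16.0 CPM with a median of 5.29 in KO tumours, where KO F was highest. Its log2 fold change of 0.08 ± 0.47 had a 95% interval of -0.85 to 1.01, wide enough to hold a doubling in the positive direction. Its sign turned, to -0.47, without WT A, B and C.

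Pdlim5, a PDZ and LIM domain protein of the actin cytoskeleton at 0.395 Mb, gave 90.2, 78.1, 149.9, 278 and 259.8 CPM in WT tumours A to E. KO tumours were narrower, from 182 to 247 CPM with a median of 195. WT A, B and C lay below every KO tumour and WT D and E above every one. The difference in log2 terms was 0.23 ± 0.31 in all tumours and -0.41 without WT A, B and C (edgeR unadjusted p = 0.0125).

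Bmpr1b, a receptor kinase for bone morphogenetic proteins at 0.621 Mb, was low, with 0.174, 1.92, 0.590, 1.76 and 1.45 CPM in WT tumours A to E and 0.488 to 2.33 CPM over the KO tumours. Unc5c, a netrin receptor at 0.956 Mb, ranged from 0.738 to 4.43 CPM in WT and 1.65 to 8.62 CPM in KO tumours. Both groups of values overlapped, and the log2 fold changes of 0.17 ± 0.55 and 0.49 ± 0.46 had 95% intervals of -0.92 to 1.26 and -0.42 to 1.40. Within 1 Mb, the 2 genes with the highest levels per kilobase of exon, Gtf2b (12.7 CPM per kilobase) and Pdlim5 (21.1 CPM per kilobase), carried the narrowest intervals, and for the other 3 a difference of 2-fold was within the interval.

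On the other side of Pkn2 the nearest neighbour is Lmo4, a LIM-only transcriptional cofactor at 1.31 Mb. It gave 141, 134, 265, 139 and 127 CPM in WT tumours A to E and 133 to 177 CPM in KO tumours. WT C stood far above all other tumours, and the remaining 10 lay close together. Sh3glb1, which encodes an endophilin of membrane curvature and autophagy at 1.80 Mb, ranged from 392 to 514 CPM with a median of 396 in KO and from 404 to 596 CPM in WT tumours. These genes had log2 fold changes of -0.10 ± 0.20 and -0.15 ± 0.16.

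**Figure D3:**
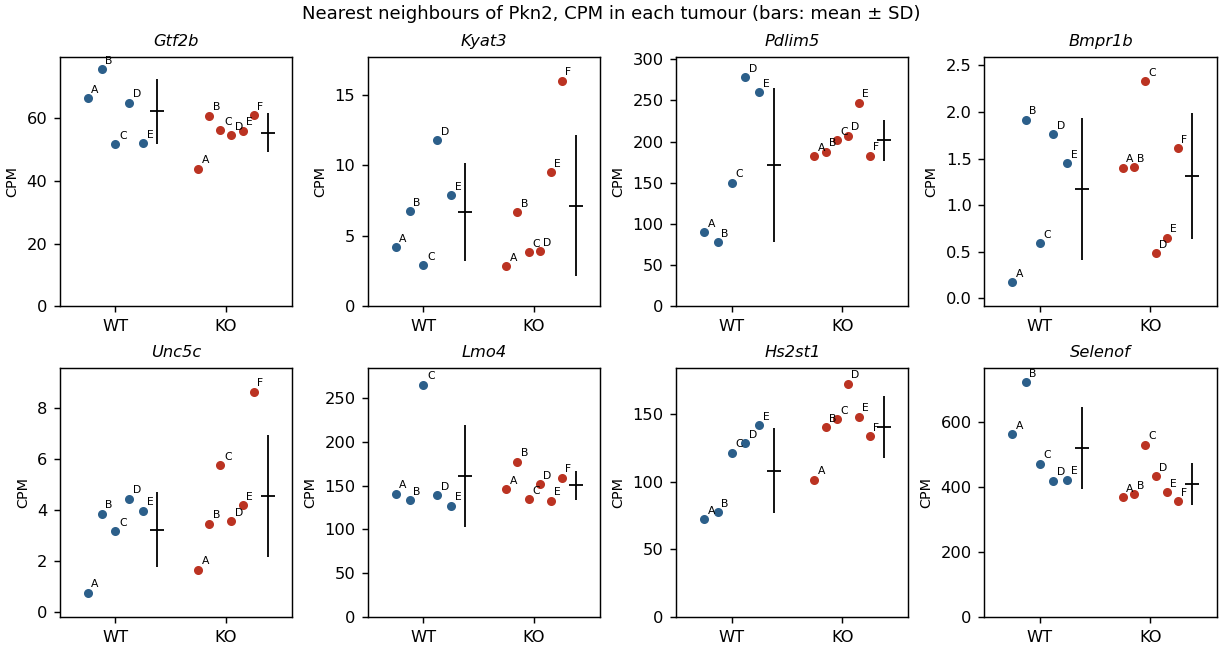
CPM of 8 of the nearest neighbours in each tumour, WT (blue, letters A to E) and KO (red, letters A to F), with mean ± SD as black bars and axes that start at 0. The groups overlap for all 8 genes, as for Gtf2b at 51.7 to 75.6 CPM in WT and 43.8 to 60.9 CPM in KO tumours.

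The Clca genes encode secreted or membrane-bound metalloproteases that modify chloride channel activity, and Clca1 is known from mucus-producing epithelium. The list fixed for this family had 7 genes, of which 6 were present and 5 tested, 2 with an unadjusted p under 0.05, both higher (8.57% of all genes tested were). Their median log2 fold change was 0.88. Clca3b (ENSMUSG00000037033, 144822623 to 144849357, minus strand, 1.94 Mb from Pkn2) stood at 0.738, 0.417, 1.23, 0.627 and 1.21 CPM in WT tumours A to E and ranged from 1.44 to 4.80 CPM with a median of 2.93 in KO tumours. Every KO tumour exceeded every WT tumour, by a small margin between KO A and WT C. These levels rest on 41 to 119 counts per KO tumour and 5 to 41 per WT tumour. The log2 fold change was 1.81 ± 0.41 (SE), with an edgeR adjusted p of 0.0786 and a DESeq2 adjusted p of 0.00119. Without WT A, B and C the log2 fold change was 1.70.

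Clca3a2 (144796559 to 144819494, minus strand), next to it, gave 1.13, 0, 3.73, 0.548 and 4.02 CPM in WT tumours A to E. WT B had no count, which allows up to 0.250 CPM in that library. KO tumours ranged from 3.33 to 22.1 CPM with a median of 7.65. KO F was far above the others, and KO E lay below WT C and E, so that the groups overlapped. On the log2 scale KO differed from WT by 2.22 ± 0.78 (edgeR adjusted p = 0.126, DESeq2 adjusted p = 0.0272), and by 1.958 without WT A, B and C.

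The third gene of the group, Clca3a1, gave 2.95, 5.34, 5.01, 15.3 and 12.9 CPM in WT and ranged from 7.19 to 26.9 CPM with a median of 12.7 in KO tumours. Its log2 fold change was 0.88 ± 0.48 (edgeR adjusted p = 0.276) and 0.13 without WT A, B and C. Clca2, named to complete the family, stood at 1.25 to 2.80 CPM in WT and 1.06 to 2.30 CPM in KO tumours. Clca4a, at 0.0700 to 0.650 CPM in KO and 0.174 to 1.21 CPM in WT tumours, was not tested. Clca1 ranged from 0.386 to 29.1 CPM with a median of 2.05 in KO, where KO A was far above the rest, and gave 7.12, 0, 11.1, 0.822 and 0.591 CPM in WT tumours A to E. Its log2 fold change of 0.72 ± 1.17 was -1.02 without KO A and 3.21 without WT A, B and C.

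The Clca3 genes share near-identical stretches, which can limit these counts. Of the 100-base words in GENCODE transcripts, 7.62% of those of Clca3a1 and 7.94% of those of Clca3a2 occur in another member of the family, and 0.608% of those of Clca3b. Reads were counted where they aligned uniquely, and how many reads of these stretches were lost was not measured. Clca3b and Clca3a2 had the higher fold changes of the family over all tumours, and Clca3a1 a lower one. The start regions of Clca3b and Clca3a2 share the 39-base run, which is printed in full for Clca3a2 only, and Clca3a1 lacks it. This is a description of 3 genes without a test, and it leaves out Clca1, whose log2 fold change exceeded those of all 3 without WT A, B and C (3.21, against 1.958 for Clca3a2 and 1.70 for Clca3b).

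The Adh genes, in a cluster at lower coordinates, encode alcohol dehydrogenases that oxidise alcohols, formaldehyde bound to glutathione, and retinol. Of 6 listed genes, 3 were present. Adh4, Adh6a and Adh6b had too few counts. Adh7, an enzyme of the upper digestive epithelium that acts on retinol, stood at 2.86, 0.668, 12.7, 33.8 and 3.75 CPM in WT tumours A to E and ranged from 0.765 to 4.92 CPM with a median of 2.11 in KO tumours. WT C and D exceeded every KO tumour. WT A and E lay within the KO range, and WT B lay below it. KO tumours differed by a log2 value of -2.25 ± 0.78 (edgeR adjusted p = 0.122, DESeq2 adjusted p = 0.0272), -3.05 without WT A, B and C, and -1.15 without WT D alone.

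Adh1, a class I enzyme, gave 3.65, 0.334, 7.72, 7.13 and 8.19 CPM in WT and 0.597 to 5.20 CPM in KO tumours, and WT B was the lowest of all 11. Its log2 fold change was -1.15 ± 0.64 (-1.65 without WT A, B and C) and did not pass. Adh5, the ubiquitous class III enzyme that clears formaldehyde, was the best measured, at 152, 173, 156, 175 and 125 CPM in WT and 115 to 146 CPM in KO tumours. WT A to D were above every KO tumour, and WT E lay inside the KO range. The difference in log2 terms was -0.31 ± 0.13 (edgeR unadjusted p = 0.0380, adjusted p = 0.184). All 3 genes had lower values in KO tumours on average, 2 of them with an unadjusted p under 0.05, where 15.5% of all genes tested were lower. No word of 100 bases of these 3 genes occurs in another Adh gene. The carcinoma epithelial markers given above were also lower in KO tumours, 3 of 5 at an unadjusted p under 0.05, and their part in the Adh values was not tested.

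**Figure D4:**
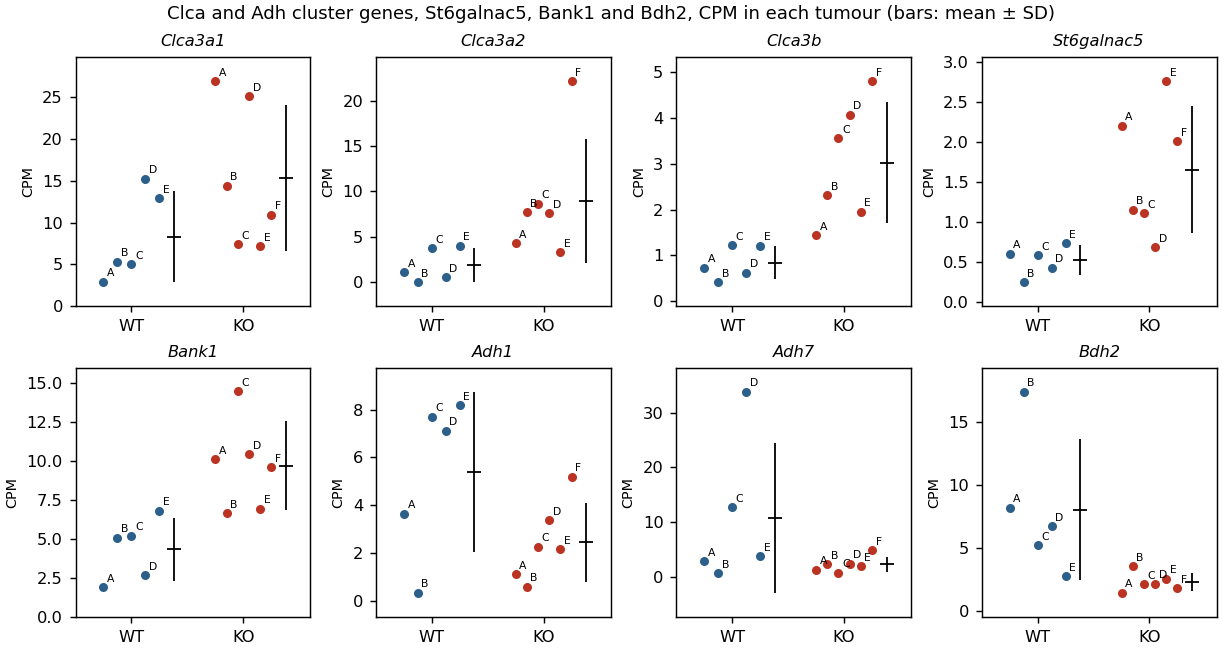
CPM in each WT (blue) and KO (red) tumour of 3 Clca genes, 2 Adh genes, St6galnac5, Bank1 and Bdh2, with mean ± SD as black bars and replicate letters. For Clca3b every KO tumour, from 1.44 CPM upward, lies above every WT tumour, while the KO and WT ranges of the other 7 genes overlap.

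Bank1, a scaffold protein of B cell receptor signalling, lies 6.46 Mb from Pkn2. WT tumours A to E gave 1.91, 5.09, 5.21, 2.66 and 6.80 CPM, and KO tumours ranged from 6.64 to 14.5 CPM with a median of 9.86. KO B and WT E were about level, and the other 5 KO tumours lay above all WT tumours. The log2 fold change was 1.16 ± 0.34 (edgeR adjusted p = 0.0986, DESeq2 adjusted p = 0.0157). The summed level of the 4 B cell markers (Cd79a, Cd79b, Ms4a1 and Pax5) moved with it, from 5.26 to 23.3 CPM in WT and from 28.1 to 84.8 CPM in KO tumours, with none of the 4 at 0 in every tumour, and its part in the Bank1 value was not tested.

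The other genes of the list for inflammatory and lymphocyte signalling showed no unadjusted p under 0.05, so that 1 of 5 did (higher, as 8.57% of all genes tested). Nfkb1, the p105/p50 subunit of NF-κB, ranged from 126 to 186 CPM with a median of 149 in KO and gave 99.6, 65.0, 95.2, 142 and 149 CPM in WT tumours A to E. Its log2 fold change was 0.46 ± 0.21 in all tumours and 0.06 without WT A, B and C. Bcl10, an adaptor that links antigen receptors to NF-κB, Dapp1, a B cell phosphoinositide adaptor, and Ppp3ca, a catalytic subunit of calcineurin, had log2 fold changes of -0.10 ± 0.15, 0.16 ± 0.17 and -0.21 ± 0.23. Ppp3ca was raised in 1 WT tumour, C, with 233 CPM. Ifi44, an interferon-induced gene at 8.85 Mb, ranged from 1.71 to 29.5 CPM with a median of 12.2 in KO and from 4.09 to 16.2 CPM in WT tumours. Its difference, 0.63 ± 0.55 on the log2 scale and 1.13 without WT A, B and C, did not pass.

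Among genes of lipid and mitochondrial metabolism, 2 of 6 had an unadjusted p under 0.05, both lower, as were 15.5% of all genes tested. Bdh2, a cytosolic hydroxybutyrate dehydrogenase also linked to siderophore synthesis, stood at 8.20, 17.4, 5.21, 6.74 and 2.75 CPM in WT tumours A to E and ranged from 1.44 to 3.55 CPM with a median of 2.14 in KO tumours. WT E fell within the KO range and the other 4 WT tumours lay above it. On the log2 scale KO differed from WT by -1.82 ± 0.42 (edgeR adjusted p = 0.0796, DESeq2 adjusted p = 0.00143) and -1.06 without WT A, B and C.

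Ppa2, a mitochondrial inorganic pyrophosphatase, gave 89.2, 131, 150.0, 84.9 and 66.8 CPM in WT and 56.8 to 82.5 CPM in KO tumours. WT A to D exceeded every KO tumour. Its log2 fold change was -0.57 ± 0.21 (edgeR adjusted p = 0.130) in all tumours but -0.11 without WT A, B and C. Of the others, Cisd2, an iron-sulphur protein of the outer mitochondrial membrane, had -0.29 ± 0.15, Gstcd, a glutathione transferase-like gene, 0.22 ± 0.15, and Miga1, a mitochondrial fusion factor, 0.18 ± 0.42 on the log2 scale (-0.59 without WT A, B and C).

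In transcription and RNA processing, 2 of 11 genes had an unadjusted p under 0.05, both lower, which is 18.2% against 15.5% of all genes tested. Rpf1, a ribosome production factor of the large subunit, stood at 85.3, 84.4, 70.6, 71.9 and 62.9 CPM in WT tumours A to E and ranged from 46.9 to 69.8 CPM with a median of 58.8 in KO tumours. WT A, B, C and D were above every KO tumour. KO tumours differed by a log2 value of -0.38 ± 0.14 (edgeR unadjusted p = 0.0209, adjusted p = 0.144) and -0.22 without WT A, B and C. Trmt10a, a tRNA methyltransferase named here after its value was seen, had a log2 fold change of -0.37 ± 0.17 (edgeR adjusted p = 0.198), with 13.7 to 17.0 CPM in WT and 9.23 to 15.6 CPM in KO tumours. It overlaps Mttp on the opposite strand.

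H2afz, which encodes the histone variant H2A.Z, had the highest level per kilobase of exon of all 76 neighbours, at a mean of 238 CPM per kilobase. It gave 575, 720.4, 399, 347 and 386 CPM in WT and 304 to 490.3 CPM in KO tumours. WT A and B alone exceeded the KO range. Its log2 fold change of -0.39 ± 0.21 became 0.02 without WT A, B and C. Fubp1, a single-strand DNA-binding regulator, and Zzz3, a zinc finger protein of a histone acetyltransferase complex, had 0.01 ± 0.19 and 0.13 ± 0.22.

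In cytoskeleton and adhesion, 2 of 7 genes had an unadjusted p under 0.05, both higher, beside 8.57% of all genes tested. Tspan5, a tetraspanin that regulates the sheddase ADAM10, gave 14.6, 9.26, 13.3, 7.17 and 11.3 CPM in WT tumours A to E and ranged from 14.3 to 21.3 CPM with a median of 17.7 in KO tumours. The groups overlapped through WT A, which lay just above KO C and KO E and below the other 4 KO tumours. The difference in log2 terms was 0.67 ± 0.22 (edgeR adjusted p = 0.113, DESeq2 adjusted p = 0.0395), and 0.94 without WT A, B and C.

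Col24a1, a fibrillar collagen at 2.41 Mb, stood at 1.35, 1.17, 1.92, 2.58 and 6.06 CPM in WT and ranged from 3.06 to 8.34 CPM with a median of 5.22 in KO tumours. WT E was the sole WT tumour above the lowest KO value. The log2 fold change was 1.06 ± 0.46 (edgeR adjusted p = 0.183), 0.35 without WT A, B and C, and 1.64 without WT E (edgeR adjusted p = 0.0329). Npnt, an integrin ligand of basement membranes, was expressed at 106, 93.2, 398, 428 and 345 CPM in WT and 174 to 442 CPM in KO tumours, with low values in WT A and B. Emcn, an endothelial sialomucin, had a log2 fold change of -0.30 ± 0.25, and the 5 endothelial markers had no unadjusted p under 0.05.

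Kinases, receptors and small G protein genes had 1 of 8 tested genes at an unadjusted p under 0.05, a lower one, against 15.5% of all genes tested. This was Adgrl2, a latrophilin adhesion receptor at 5.93 Mb, named after its values were seen. WT tumours A to E gave 6.90, 11.3, 15.9, 65.1 and 38.1 CPM and KO tumours ranged from 8.86 to 18.5 CPM with a median of 13.6. WT D and E were above every KO tumour and WT A below every one. On the log2 scale KO differed from WT by -1.02 ± 0.47 (edgeR adjusted p = 0.208) and -1.92 without WT A, B and C.

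No other gene of this list had an unadjusted p under 0.05. Gng5, a G protein gamma subunit, gave 147, 402, 245, 141 and 142 CPM in WT and 128 to 181 CPM in KO tumours. WT B and C were above the KO range. Its log2 fold change was -0.51 ± 0.27, against 0.09 without WT A, B and C. Rap1gds1, an exchange factor and chaperone of small GTPases, Prkacb, a catalytic subunit of protein kinase A, and Lamtor3, a scaffold of the lysosomal Ragulator complex, had 0.24 ± 0.17, 0.33 ± 0.27 and -0.31 ± 0.15.

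Of 5 genes of lysosome and ion transport, Manba alone had an unadjusted p under 0.05 (higher, background 8.57%). It encodes the lysosomal beta-mannosidase and stood at 35.0, 27.5, 108, 109 and 85.7 CPM in WT and 84.6 to 161 CPM in KO tumours. WT A and B lay below every KO tumour. KO tumours differed by a log2 value of 0.75 ± 0.35 (edgeR adjusted p = 0.205) and 0.34 without WT A, B and C. Ctbs, a chitobiase, and Mcoln2, a mucolipin channel, had 0.12 ± 0.22 and -0.07 ± 0.32. Slc39a8, a zinc and manganese importer, had -0.29 ± 0.43, and -1.08 without WT A, B and C (unadjusted p = 0.0162). WT D stood at 23.8 CPM against 4.31 to 9.84 CPM in KO tumours.

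No gene of ubiquitin and proteostasis (5 genes) had an unadjusted p under 0.05. Ube2d3, a ubiquitin-conjugating enzyme, gave 369 to 487 CPM in KO and 382 to 558 CPM in WT tumours. Usp33, a deubiquitinase, and Dnajb14, an endoplasmic reticulum cochaperone, had log2 fold changes of 0.08 ± 0.21 and -0.06 ± 0.19.

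Of 6 other enzymes, 1 had an unadjusted p under 0.05 (higher, background 8.57%), and all 6 had positive log2 fold changes over all tumours. Without WT A, B and C those of Kyat3 (-0.47) and Ddah1 (-0.0106) were negative. The others stayed positive in that fit, with 0.06 for Hs2st1 and 0.08 for Pigk. St6galnac5, a sialyltransferase of gangliosides, lies 9.94 Mb away and was low, at 0.608, 0.250, 0.590, 0.431 and 0.739 CPM in WT tumours A to E. KO tumours ranged from 0.691 to 2.76 CPM with a median of 1.59, and KO D fell below WT E. These are 17 to 68 counts per KO tumour and 3 to 25 per WT tumour. The difference in log2 terms was 1.62 ± 0.42 (edgeR adjusted p = 0.0906, DESeq2 adjusted p = 0.0109). The gene overlaps Pigk on the opposite strand, a gene of 26.4 to 59.2 CPM in WT and 47.9 to 66.6 CPM in KO tumours, and whether the counting used strand is not given in the sources used here. Pigk, a subunit of the GPI transamidase, had 0.38 ± 0.22, Ddah1, which degrades asymmetric dimethylarginine, 0.24 ± 0.20, and Ak5, an adenylate kinase, 0.37 ± 0.33 on the log2 scale.

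A gene of unknown function, 1110002E22Rik, had an unadjusted p under 0.05 and lower values in KO. WT tumours A to E gave 0.955, 0.751, 0.0983, 3.17 and 3.90 CPM and KO tumours ranged from 0.0350 to 0.983 CPM with a median of 0.563. WT D and E were above all KO tumours and WT C was below the level of 3 counts. The log2 fold change was -1.73 ± 0.75 (edgeR adjusted p = 0.183) and -2.70 without WT A, B and C.

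The remaining 11 genes that belong to no list of roles had no unadjusted p under 0.05. Their log2 fold changes ranged from -0.54 ± 0.32 (Gipc2) to 0.45 ± 0.25 (Adgrl4, an endothelial adhesion receptor), both named for being at the ends of this range. Cenpe, a kinetochore motor of dividing cells that was also named after its values were seen, stood at 27.4, 28.4, 64.0, 51.6 and 61.4 CPM in WT and 39.9 to 71.4 CPM in KO tumours, a difference of 0.29 ± 0.25 (log2). WT A and B lay below every KO tumour. Lpar3, a lysophosphatidic acid receptor, was present at no more than 0.632 CPM and was not tested, and Ptgfr, the prostaglandin F receptor, was the lowest tested neighbour per kilobase at 0.0598 CPM per kilobase.

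The head-to-head pairs whose shared start regions are printed above, and Gstcd with Ints12, for which no stretch is printed, were compared gene by gene. Hs2st1, a heparan sulphate sulphotransferase, gave 72.3, 77.4, 121, 129 and 142 CPM in WT and 101 to 172 CPM in KO tumours. Selenof, a selenoprotein of the endoplasmic reticulum whose start lies 123 bases away, gave 561, 721, 472, 419.7 and 423 CPM in WT and 355 to 529 CPM in KO tumours. WT A and B were the lowest of the WT tumours for Hs2st1 and the highest for Selenof. Their log2 fold changes were 0.37 ± 0.21 and -0.35 ± 0.19, and 0.06 and -0.04 without WT A, B and C.

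In the second pair, 54 bases apart, Spata1, a testis-enriched gene, had -0.41 ± 0.34 at 2.21 to 5.26 CPM in WT and 1.44 to 4.11 CPM in KO tumours, beside the -0.51 of Gng5. Dnajb4, a cochaperone, and Fubp1, 120 bases apart, had -0.06 ± 0.19 and 0.01 ± 0.19. Gstcd and Ints12, a subunit of the Integrator complex, overlap by 193 bases at their starts, and had 0.22 ± 0.15 and -0.09 ± 0.17. None of the 8 genes passed an unadjusted p of 0.05.

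What the neighbours shared apart from position was looked for in their promoters. A RefSeq start within 1000 bases of the GENCODE start was found for 55 of the 76 genes. Of these, 37 had a CpG-rich window (300 bases with at least 50% G and C and an observed to expected CpG ratio of at least 0.6), a share of 67.3%. Among tested genes the share was 66.7% of the neighbours and 65.6% of all genes with a matched promoter, so that the neighbours were like other expressed genes in this respect. Of the 36 tested genes with CpG-rich promoters the median absolute log2 fold change was 0.25, none exceeded 1, and the median level was 51.6 CPM. The 18 others had a median of 0.54, 6 of them exceeded 1, and the median level was 7.83 CPM. The same split over all tested genes gave medians of 0.30 and 0.39, with 4.72% and 12.1% of genes over 1. The level of the genes moved with this split, and its part was not tested. Among the neighbours called by DESeq2, Clca3a2, Clca3b, Adh7, Bank1 and Bdh2 were in the second class and Tspan5 in the first. St6galnac5 had no matched promoter. At an unadjusted p under 0.05 in edgeR, the first class held 2 higher and 3 lower genes, and the second 4 and 2. Over all tested genes, 23.8% of the first class and 23.2% of the second had such a p.

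Across tumours the neighbours as a group showed no common shift between genotypes. The median deviation of the 74 genes from their own mean, in log2(CPM + 1), ranged from -0.17 (KO A) to 0.12 (KO C) in KO tumours. In WT tumours it ranged from -0.31 (WT A) and -0.23 (WT B) to 0.16 (WT D), so that the KO range lay inside the WT range. The median over all genes stayed between -0.02 and 0.00 in every tumour. WT A and B, which were low for the neighbours, are 2 of the 3 libraries that stood apart by gene length and ribosomal RNA.

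**Figure D5:**
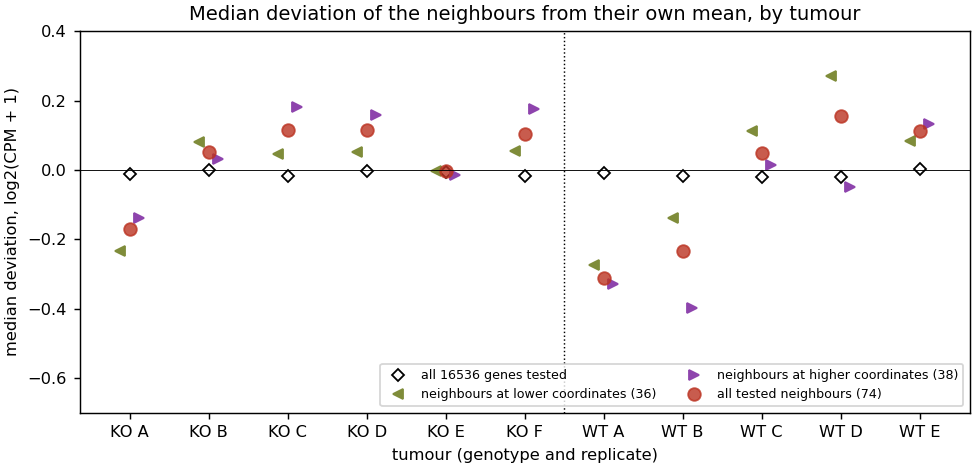
Median deviation, in log2(CPM + 1), of the tested neighbours from their own mean in each of the 11 tumours, for all 74 genes (red) and the genes at lower (olive) and higher (purple) coordinates, with all 16536 tested genes as open diamonds. WT A and WT B are lowest at -0.31 and -0.23, KO A follows at -0.17, and the other tumours lie between -0.00 and 0.16.

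Several of the values above differed without WT A, B and C. Without these 3 tumours, 5 neighbours were higher and 10 lower at an unadjusted p under 0.05, against 8.21% and 9.01% of all genes, and the median log2 fold change was -0.05. Among the 15 genes of the first count, Clca3b, St6galnac5, Bank1, Tspan5, Bdh2, Adh7, 1110002E22Rik and Adgrl2 kept an unadjusted p under 0.05, and Col24a1, Manba, Ppa2, Rpf1, Adh5, Trmt10a and Clca3a2 did not. Pdlim5, Usp33, Slc39a8, Adh1, Miga1 and Fubp1 had such a p, all lower, without these tumours but not over all tumours. So did Odf2l, which was higher and is named here after its value was seen. This comparison rests on 2 WT tumours. The 5 Gbp genes left out by name, interferon-induced GTPases that lie between 0.15 and 0.27 Mb from Pkn2, had log2 fold changes of 0.65 to 2.21. Of these, 3 (Gbp5, Gbp2b and Gbp2) had an unadjusted p under 0.05 and were higher in KO, and none passed the adjusted threshold in edgeR.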

How the data were processed

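The authors sequenced RNA from 11 tumours on strand-specific libraries. Per the labels and the study's methods, reads were demultiplexed with bcl2fastq (2.19), trimmed with Trimmomatic, aligned with HISAT2 (2.1.0) to GRCm38 (mm10), and uniquely aligned reads over exons were counted with HTSeq (0.11.2), so that reads that align equally well to near-identical genes can be missing. The authors deposited raw counts per gene and a second table of normalised values, a signal of counts divided by a factor per sample. Only the raw counts were tested, and the normalised signal served as an alternative. Groups and replicate letters come from the sample titles, all 11 columns of each table were used and 0 were left over. Of 54232 identifiers, 54165 matched GENCODE M21.

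Counts of all genes were fitted with the edgeR quasi-likelihood test (version 4.0.16, R 4.3.3; TMM, filterByExpr, no covariates, Benjamini-Hochberg over 16536 genes), with DESeq2 (1.42.0) as an alternative. Both were also run on simulated data with 200 changed genes. There all genes had the same dispersion and the libraries did not differ in quality, so that this does not measure their error here. SE is the absolute log2 fold change over the square root of F, and 95% intervals are 1.96 SE. CPM uses TMM-scaled totals. Levels and intervals are at depths of 16294128 to 31121422 counts, and the floor of 3 counts covers counting error only.

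The genes, gene lists and tests were chosen with earlier results of these data known. Named are the 6 genes nearest to Pkn2 on each side, the 6 with the smallest p in each direction, those without overlap, up to 4 of highest mean CPM in each list of roles, and head-to-head pairs (starts at most 1000 bases apart). Other genes are said to be named after their values were seen. A marker of the list for B cells is not reported here and was left out of its sum. No 2 libraries of the same group agreed within sampling noise (lowest chi-square per degree of freedom 33.9). Pairs of a KO and a WT library were not examined. Promoter sequences are from RefSeq (GRCm38.p6). Alternatives were RLE scaling, 2 count filters, a replicate block, the ribosomal RNA share, a gene length offset, leaving out WT A, B and C, and leaving out each tumour.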

Additional observations from a re-analysis of the deposited data

Results flagged for a closer look

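The highest or lowest tumour of a group stood far from the rest, by a gap to the nearest other tumour that took a larger share of the group's range than Dixon's 95% critical value, in 9 of the 112 groups of values examined (the KO and the WT values of each named neighbour, of Pkn2 and of the median deviation). For independent values that follow a normal distribution, chance alone gives about 1 in 20 groups, here 5.6. These groups come from the same libraries and are not independent, so that 9 beside 5.6 is not a test. No cause was tested.

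Among WT tumours, Lmo4 reached 265 CPM in WT C against 127 to 141 CPM in the other 4 WT tumours, and Ppp3ca 233 CPM in WT C against 83.2 to 120 CPM. Slc39a8 reached 23.8 CPM in WT D, with 3.73 to 8.57 CPM in the others. Col24a1 reached 6.06 CPM in WT E, with 1.17 to 2.58 CPM in the others.

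In KO tumours, KO A was high for Clca1 at 29.1 CPM, with 0.386 to 4.07 CPM in the other 5 tumours, and low for Gtf2b at 43.8 CPM (others 54.5 to 60.9 CPM) and Pigk at 47.9 CPM (others 60.4 to 66.6 CPM). Clca3a2 reached 22.1 CPM in KO F, with 3.33 to 8.63 CPM in the others, and Ube2d3 487 CPM in KO C, with 369 to 409 CPM in the others.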

How the results depend on the processing

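No neighbour passed an adjusted p of 0.05 in edgeR with RLE scaling, either filter, the replicate block, the ribosomal RNA share, the gene length offset, or without WT A, B and C, whereas DESeq2 called 7 (9.45% of all genes), and leaving out single tumours gave 0 to 6, with 6 without WT E (11.1% of all genes) and 2 without WT D (5.07%). The count of neighbours higher at an unadjusted p under 0.05 was 5 to 9 with single tumours left out (6.68% to 13.0% of all genes), and 4 when the share of ribosomal RNA was a covariate (4.37%). The count lower was 4 to 9 with single tumours left out (9.59% to 19.1% of all genes), 5 without a filter (9.63%), 3 in the replicate block (7.96%) and 5 with the ribosomal RNA share (4.52%). It was 15 of 74 with the length offset, a larger share than the 13.9% of all genes that were lower in that fit. Neighbours without overlap numbered 1 to 4 higher and 0 to 4 lower with single tumours left out (4 and 4 without WT E, where 4.40% and 4.63% of all genes had these patterns), and 3 and 9 without WT A, B and C, an alternative chosen after seeing the data, where 9.02% and 10.7% of all genes had these patterns. The median log2 fold change lay between -0.06 and 0.12 with single tumours left out. The log2 fold change of Pkn2 was 0.00172 with DESeq2, 0.00193 with RLE scaling, 0.00360 with 10 counts in every tumour, 0.0361 without a filter, 0.0728 in the replicate block, -0.27 with the ribosomal RNA share, -0.25 with the length offset and -0.12 to 0.16 with single tumours left out. Tumours of the same letter correlated at -0.14 to 0.12. Tumours of different letters were not compared in this way, so that these values do not show whether the letters mark pairs. Of the 54 named genes, 26 kept their sign in every fit and 28 did not. The sign turned in the replicate block for Dnajb14 (0.0287) and Kyat3 (-0.29), and with the length offset for Fubp1 (-0.27), Kyat3 (-0.13), Usp33 (-0.12) and Zzz3 (-0.11). With the ribosomal RNA share it turned for Bcl10 (0.0346), Ctbs (-0.0197), Emcn (0.00745), Fubp1 (-0.20), Gng5 (0.0248), Kyat3 (-0.28), Miga1 (-0.38), Pdlim5 (-0.15), Sh3glb1 (0.0449), Usp33 (-0.0830) and Zzz3 (-0.0923). Without WT A, B and C it turned for Bcl10 (0.16), Bmpr1b (-0.28), Ctbs (-0.24), Dapp1 (-0.10), Ddah1 (-0.0106), Emcn (0.17), Fubp1 (-0.28), Gng5 (0.0922), Gstcd (-0.0365), H2afz (0.0249), Kyat3 (-0.47), Lamtor3 (0.0194), Lmo4 (0.18), Miga1 (-0.59), Npnt (-0.14), Pdlim5 (-0.41), Prkacb (-0.0491), Rap1gds1 (-0.0409), Sh3glb1 (0.0335), Usp33 (-0.39) and Zzz3 (-0.35). With single tumours left out the range crossed 0 for Clca1 (-1.02 to 1.58), Bmpr1b (-0.11 to 0.39), Fubp1 (-0.12 to 0.11), Kyat3 (-0.33 to 0.39), Mcoln2 (-0.23 to 0.15), Usp33 (-0.0505 to 0.26), Miga1 (-0.0789 to 0.68), Dnajb14 (-0.18 to 0.0766), Lmo4 (-0.17 to 0.15), Ppp3ca (-0.33 to 0.11), Dnajb4 (-0.17 to 0.0433), Ints12 (-0.16 to 0.00557) and Slc39a8 (-0.49 to 0.42). The cause of these shifts was not tested. At the depths given, a gene with no count in WT B could still stand at up to 0.250 CPM.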
